A study of Mus musculus with 14 samples.

Results

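The genes described here belong to the families that carry the names of flagellum and axoneme parts: Cfap (cilia and flagella associated proteins), Dnah (dynein axonemal heavy chains), Dnai (dynein axonemal intermediate chains), Drc (dynein regulatory complex), Tekt (tektins) and Odf (outer dense fibres of sperm tails). They were chosen by symbol alone, as every gene whose name starts with 1 of these words followed by a digit. This gave 65 of the 38444 genes in the deposited count tables, made up of 33 Cfap, 16 Dnah, 3 Drc, 5 Tekt and 8 Odf genes. No gene carried a Dnai symbol, since the tables use the older names Dnaic1 and Dnaic2 for those intermediate chains. The spermatogonia table held 62 of the 65 among its 32667 genes and lacked Cfap97d1, Odf3 and Odf3l2, and the spermatocyte table held all 65 among 36888. Of the 65, 64 are protein-coding and Dnah2os is an antisense long noncoding RNA. They lie on 19 chromosomes, with 11 on chromosome 11, and Cfap47 is the only member on the X chromosome.

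The study asked how retrotransposons become active in male germ cells that lack DNMT3C, the rodent enzyme that methylates promoters of young retrotransposons, and the gene counts used here come from the same libraries. Polyadenylated RNA was sequenced from sorted testis cells of Dnmt3CKO/KO (KO) and wild-type (WT) littermates on a C57BL/6J background. Spermatogonia (Spg, 3 KO and 3 WT libraries) came from testes at 14 days of age and were sorted as living cells (no DAPI stain) that carried Ep-CAM on their surface and lacked β-2-microglobulin. Spermatocytes (Spc, 4 KO and 4 WT libraries) came from mice older than 20 days and were sorted by propidium iodide exclusion and a Hoechst gate, which the methods describe as diploid DNA content. The study describes an arrest of KO germ cells at the pachytene stage of meiosis, and a WT spermatocyte sort that holds a later stage as well. Age and sort differ between Spg and Spc, so neither can be told apart from stage. How many animals each library stands for is not given in the sources used here, so p-values measure the spread between libraries.

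The axoneme is the microtubule core of the sperm tail, a ring of doublet microtubules around a central pair. Outer and inner dynein arms on the doublets drive the beat, the nexin-dynein regulatory complex ties neighbouring doublets together, tektins form filaments inside the doublet wall, and outer dense fibres stiffen the tail around it. Germ cells build the tail as spermatids, and many of its genes are known to be transcribed from the pachytene stage on, ahead of the structure itself.

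Spermatogonia libraries held between 46676196 and 49332778 counts for KO and between 40555726 and 47620356 for WT. Spermatocyte libraries held between 44883293 and 47198914 for KO and between 47612168 and 53323651 for WT. The targeted gene Dnmt3c was not lower in KO: its counts were 116, 58 and 67 in KO and 89, 65 and 53 in WT spermatogonia, and 55, 56, 52 and 57 in KO and 28, 11, 19 and 25 in WT spermatocytes. The part of the gene that the allele removes is not given in the sources used here, so KO and WT stand for libraries labelled as such. In the same tables IAPEz-int, an internal part of the IAP retrotransposons, had 87406, 70160 and 69044 counts in KO and 5531, 5859 and 5129 in WT spermatogonia, and 87600, 60588, 134240 and 94129 in KO and 4251, 2860, 9388 and 3460 in WT spermatocytes. Every library labelled KO was above every WT library of its stage (IAPEz-int was chosen after its values were seen). Among markers of pachytene and diplotene cells, 14 of 14 were lower in KO spermatocytes, and 12 of 12 markers of Leydig and stromal cells were higher. Summed Leydig and stromal markers came to 4184, 2209, 412 and 3661 CPM (counts scaled to library size, here by TMM within each stage's table) in KO spermatocyte replicates 1 to 4, against 46.8 to 63.9 in the WT ones. Replicates 1 and 4 of the spermatocytes were more alike than other pairs in either genotype, though not within counting error, and tests were repeated with them summed to 1 library.

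The start regions of several members share a short motif, and 6 of them are shown because they hold GTTGCC (or its reverse complement GGCAAC), the core bound by RFX factors, which are known regulators of cilium genes. Each line gives the 100 bases that end just before the annotated start of transcription, 5′ to 3′ on the gene's own strand, from RefSeq on GRCm38.p6, and capitals mark the motif on either strand.
Cfap161 (chr7:83794840-83794939, minus strand): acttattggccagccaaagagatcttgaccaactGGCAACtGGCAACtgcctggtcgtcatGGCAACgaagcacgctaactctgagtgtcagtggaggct
Cfap298 (chr16:90934850-90934949, minus strand): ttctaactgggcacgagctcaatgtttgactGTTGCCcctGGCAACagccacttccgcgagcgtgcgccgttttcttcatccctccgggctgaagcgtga
Dnah10 (chr5:124724985-124725084, plus strand): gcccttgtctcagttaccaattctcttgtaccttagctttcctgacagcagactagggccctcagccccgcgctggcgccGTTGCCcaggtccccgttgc
Drc1 (chr5:30281293-30281392, plus strand): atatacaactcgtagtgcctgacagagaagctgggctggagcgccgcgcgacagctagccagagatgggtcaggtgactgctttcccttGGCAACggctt
Tekt1 (chr11:72361883-72361982, minus strand): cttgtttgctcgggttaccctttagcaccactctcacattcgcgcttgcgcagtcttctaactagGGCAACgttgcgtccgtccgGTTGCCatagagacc
Tekt2 (chr4:126325689-126325788, minus strand): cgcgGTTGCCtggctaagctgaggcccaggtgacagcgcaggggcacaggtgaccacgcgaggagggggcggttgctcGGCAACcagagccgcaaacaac

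The motif stands 3 times in the Cfap161 stretch, 2 times each in those of Cfap298, Tekt1 and Tekt2, and 1 time in those of Dnah10 and Drc1, and for Tekt2 the stretch is from the first of its starts that has it. RefSeq promoters (250 bases before to 50 after the start) were matched for 54 members, which have 65 promoters because some have several starts. GTTGCC stood on either strand in 23 of these 65 promoters (35.4%), and in 12.5% of all 32851 promoters in the table. CAGTTG, a core bound by MYB factors such as the meiotic MYBL1, stood in 15 (23.1%, against 13.7% of all). TGACGTCA, the cAMP response element, stood in 1 (1.54%, against 1.79%), and GCGCATGC, bound by NRF1, in 4 (6.15%, against 2.71%). These motifs were searched on both strands, and CAGTTG and GTTGCC can overlap in the letters GTTG that they share. Member promoters had a median of 12 CpG sites and 56.0% GC, against 7 and 52.7% for all promoters, so base composition differs between the sets as well. Among the matched genes, 19 of the 46 that fell in KO spermatocytes (below) had GTTGCC (41.3%), against 1 of the 8 that were not called, Cfap97d2 (12.5%). These shares are descriptions, and a match does not show that a factor binds there.

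The members took a far larger share of the RNA in WT spermatocytes than in the other groups. Together they made up 1.89% ± 0.541 of all counts in WT spermatocytes (SD, n = 4, range 1.2 to 2.42) and 0.0883% ± 0.0119 in KO spermatocytes (n = 4, range 0.0712 to 0.0977). In spermatogonia the share was 0.0553% ± 0.00297 in KO (n = 3) and 0.171% ± 0.14 in WT (n = 3, range 0.075 to 0.332). The 95% Wilson interval of each share reached at most 0.00437 percentage points to either side and covers counting error only. The median member stood at 234, 147, 93.9 and 248 CPM in WT spermatocyte replicates 1 to 4 and at 1.91, 1.48, 1.81 and 2.52 CPM in the KO ones. No KO library came near the lowest WT spermatocyte library. In bulk samples such as these, fewer cells of a type and less RNA per cell cannot be told apart.

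**Figure D1:**
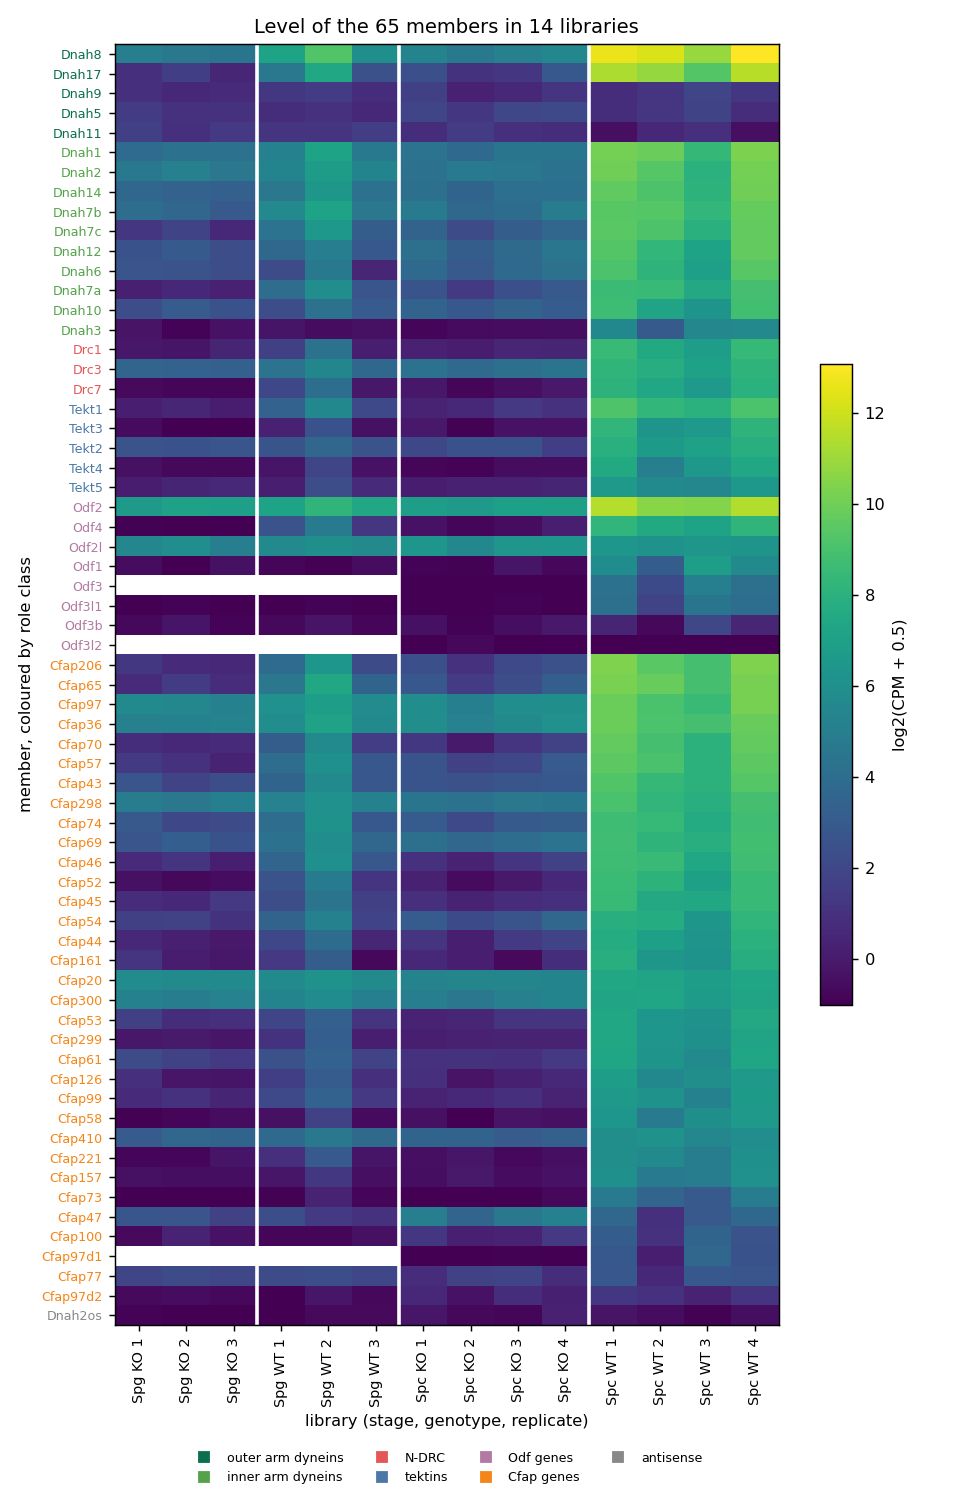
Level of each of the 65 members (rows, label colour by role class) in the 14 libraries (columns), as log2(CPM + 0.5), with white for members that the spermatogonia table does not list. The WT spermatocyte columns stand out as high for nearly all rows, the KO spermatocyte columns resemble the spermatogonia, and WT spermatogonia replicate 2 is the highest of the spermatogonia columns.

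Levels per kilobase of exon put different genes on a common scale. In WT spermatocytes Cfap206, which anchors a radial spoke and inner arm to the doublet, was highest at 384 ± 170 CPM per kb (mean ± SD, n = 4), against 1.54 ± 0.671 in KO. It was followed by Cfap36 at 262 ± 85, Tekt1 at 262 ± 102, Odf2 at 216 ± 79.4, Dnah8 at 205 ± 104 and Odf4 at 200.0 ± 68.5 CPM per kb. These neighbours in the order did not differ beyond their spread. Cfap298, a dynein arm assembly gene named here after its values were seen, stood among them at 242 ± 89.0. In KO spermatocytes Cfap36 kept 20.1 ± 5.01 CPM per kb and Odf2 11.4 ± 1.45, while Tekt1 had 0.834 ± 0.322 and Odf4 0.26 ± 0.216. At the low end in WT spermatocytes were the dynein heavy chains Dnah5 (0.121), Dnah9 (0.129) and Dnah11 (0.0494), and Odf3l2 had 0 counts in every WT spermatocyte library, with 0, 7, 0 and 0 in the KO ones.

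**Figure D2:**
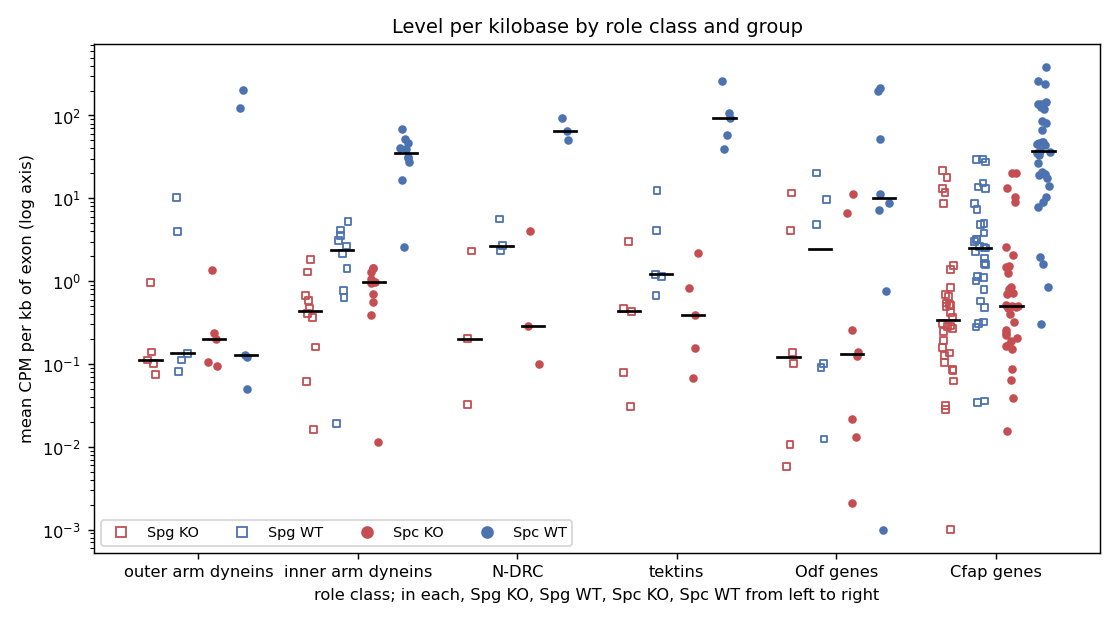
Mean CPM per kilobase of exon of each member (points) by role class and group, on a log axis with values of 0 drawn at 0.001 and black lines at class medians. Most members are highest in WT spermatocytes, while the outer arm dyneins Dnah5, Dnah9 and Dnah11 stay below 1 CPM per kb in that group.

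KO was compared with WT spermatocytes to ask which of these genes change at the meiotic stage. Of 63 members tested, 55 fell and none rose (edgeR quasi-likelihood test, two-sided, with p adjusted by Benjamini-Hochberg across genes and transposable element subfamilies together and called under 0.01). Over all 21919 genes tested, 30.6% fell and 27.6% rose, so the share of members that fell was above the background. The members' median log2 fold change was -6.27, beside 0.11 over all genes. In 54 of the 63 members every KO library lay below every WT library, which was so for 34.3% of all genes. The 8 members not called were Cfap47, Cfap77, Cfap97d2, Dnah5, Dnah9, Dnah11, Odf2l and Odf3b, and Cfap47 and Odf3b were the only ones of these with an unadjusted p under 0.05. Dnah2os and Odf3l2 had too few counts to be tested. Scaling by library totals in place of TMM moved the median of all genes to 0.79 and that of the members to -5.48, so the members lay about as far below the other genes. On that scale 54 members were lower and Cfap47 higher, beside 22.2% of all genes lower and 36.4% higher.

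**Figure D3:**
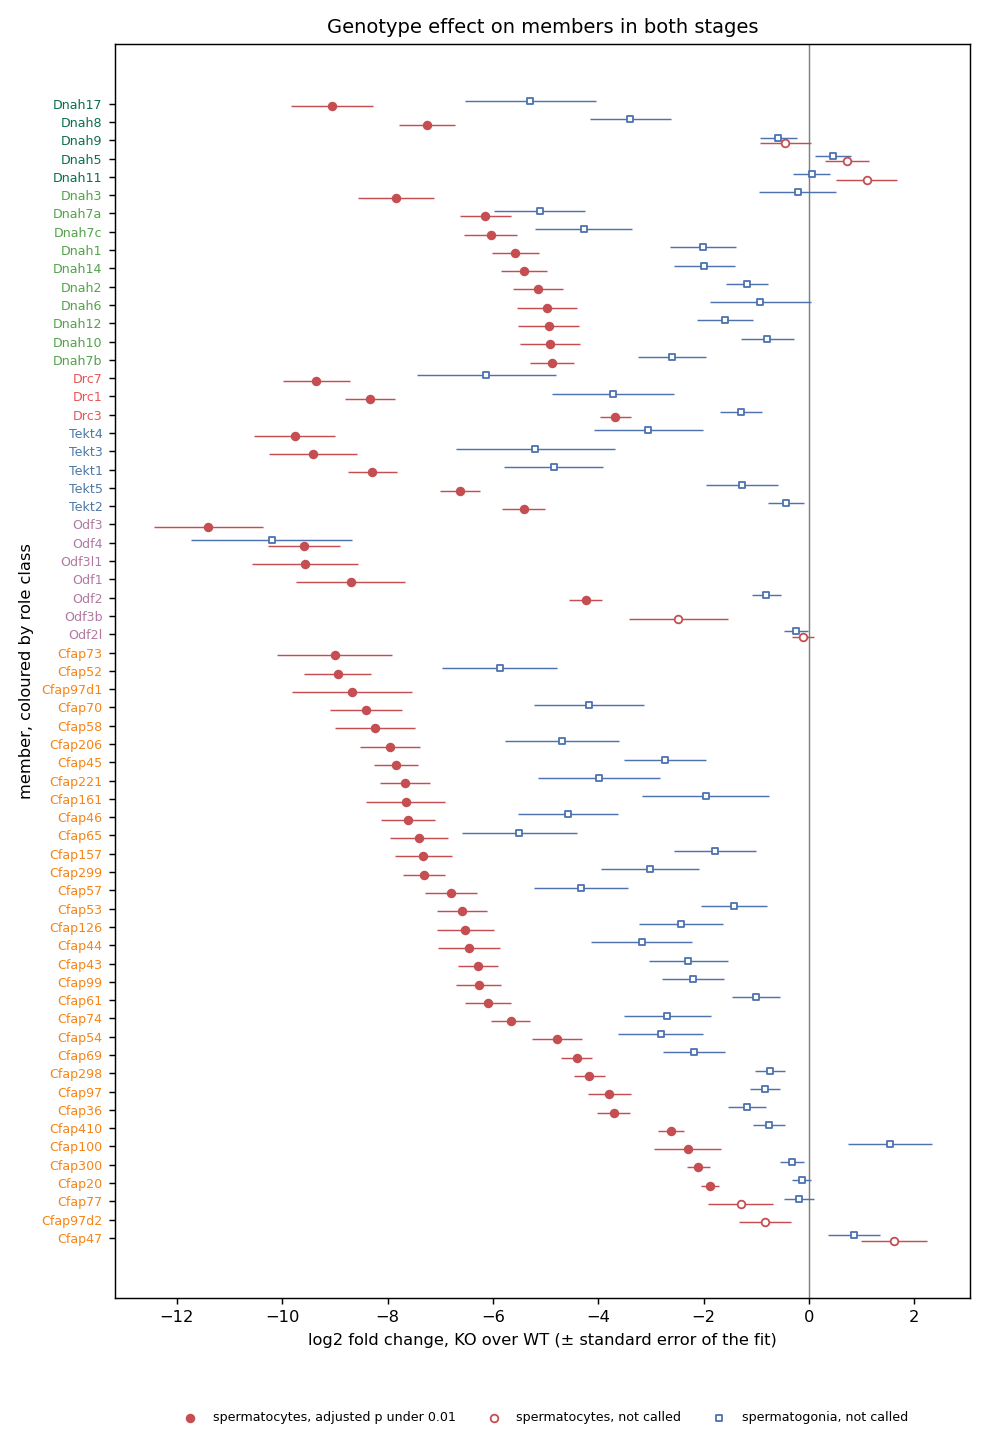
Log2 fold change of KO against WT ± SE for each member tested, by role class, with spermatocytes as circles (filled where called, open where not) and spermatogonia as open squares, none of which were called. In spermatocytes 55 of 63 members are filled and all of these lie below 0, and in spermatogonia 51 of 55 lie below 0.

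Of the Odf genes, 5 of 7 tested fell in KO against WT spermatocytes, with a class median of -8.70. With Odf3 and Odf3l1, whose KO libraries had at most 3 counts each, set to the bound those counts allow, that median was -8.18. Odf3 (chr7:140847805-140851018, plus strand on GRCm38), which encodes a SHIPPO-repeat protein of the sperm tail, had 661, 161, 1652 and 573 counts in WT replicates 1 to 4 and 1, 0, 0 and 0 in KO. The depth-corrected ratio of WT to KO counts was 4551, with a 95% counting interval from 816 to 179819. Its relative Odf3l1 had 1, 0, 3 and 0 counts in KO and 647, 126, 1087 and 531 in WT, a ratio of 893 (348 to 3280). Both genes were at or next to the limit of detection in KO spermatocytes, so their fitted fold changes depend on the prior count.

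Odf4 (chr11:68921835-68927081, minus strand), which encodes a membrane protein of the tail, had 17, 4, 12 and 36 counts in KO spermatocytes and 11108, 7467, 7128 and 9512 in WT. The groups were far apart (log2 fold change ± SE of -9.59 ± 0.68, edgeR adjusted p = 5.81e-06). Odf1 (chr15:38219203-38226735, plus strand), a main protein of the dense fibres, had 3, 2, 21 and 6 counts in KO and 2070, 335, 5636 and 1655 in WT (-8.70 ± 1.04, edgeR adjusted p = 8.43e-05). Odf2 (chr2:29889221-29931746, plus strand) encodes another main fibre protein and a centrosomal form, which is made in many cells. It kept 6480, 5965, 7232 and 6919 counts in KO, against 103307, 61071, 68776 and 90171 in WT, and fell by 4.24 ± 0.31 on the log2 scale (edgeR adjusted p = 6.88e-06). Its relative Odf2l, chosen after its values were seen, overlapped between genotypes, with 4693, 3025, 4788 and 4666 counts in KO and 2993, 2942, 4202 and 2500 in WT (-0.11 ± 0.21, edgeR adjusted p = 0.641).

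All 5 tektins fell in KO spermatocytes, with a median of -8.29. Tekt1 (chr11:72344722-72362442, minus strand) had 48, 66, 119 and 85 counts in KO and 21488, 12641, 12481 and 17292 in WT (-8.29 ± 0.47, edgeR adjusted p = 3.15e-06). Tekt3 had 26, 2, 19 and 16 counts in KO and 11047, 3110, 4550 and 8918 in WT. Tekt4 was lower still in KO, with 5, 3, 12 and 11 counts against 6701, 1281, 4414 and 5313, the largest fitted fall among tektins at -9.77 ± 0.76. Tekt2, an axonemal tektin found in cilia as well as in sperm, had 209, 336, 314 and 139 counts in KO against 9010, 4063, 6583 and 7486 (-5.42 ± 0.41). The sperm-enriched Tekt5 had 32, 45, 43 and 48 against 3504, 2072, 2233 and 2902 (-6.63 ± 0.38). For every tektin the highest KO library lay far below the lowest WT library.

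The 3 Drc genes encode subunits of the nexin-dynein regulatory complex, which ties the doublets together and limits their sliding. They fell by unequal amounts. Drc7 (chr8:95055103-95078141, plus strand) had 24, 5, 14 and 26 counts in KO and 10030, 6569, 4645 and 8102 in WT (-9.35 ± 0.64, edgeR adjusted p = 5.04e-06). Drc1, the scaffold subunit whose promoter stretch is shown above, had 41, 36, 56 and 47 against 12797, 7399, 5727 and 10907 (-8.33 ± 0.47). Drc3 kept far more RNA in KO, with 1116, 868, 1074 and 1168 counts against 10525, 8630, 6560 and 9209 (-3.68 ± 0.30).

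The outer arm dynein heavy chains divided by gene. Dnah8 and Dnah17, the outer arm chains known from the sperm tail, fell, and Dnah5, Dnah9 and Dnah11, those known from airway cilia, did not pass the test. Dnah8 (chr17:30624354-30877365, plus strand) had 2252, 1584, 2015 and 2563 counts in KO and 236512, 198457, 95239 and 274639 in WT, the largest counts of any member (-7.25 ± 0.53, edgeR adjusted p = 6.53e-06). Dnah17 (chr11:118021723-118130634, minus strand) had 274, 101, 108 and 380 against 92328, 73808, 30906 and 96196 (-9.05 ± 0.79). Dnah5 had 189, 120, 211 and 206 counts in KO against 48, 73, 157 and 39 in WT, with 1 WT library inside the KO range (0.72 ± 0.42, edgeR adjusted p = 0.151). Dnah11 had 73, 143, 84 and 70 against 9, 41, 66 and 8 (WT to KO ratio from the fit 0.467, edgeR adjusted p = 0.115), and after scaling WT replicate 3 lay inside the KO range. Dnah9 had 149, 45, 63 and 92 against 46, 68, 162 and 63, also overlapping (-0.44 ± 0.49, edgeR adjusted p = 0.43), and its sign turned to 0.13 under library totals.

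All 10 inner arm dynein heavy chains fell, with log2 fold changes between -7.84 and -4.88 and a median of -5.28. Dnah1, whose human counterpart is known for short or absent sperm tails when lost, had 1136, 859, 1282 and 1178 counts in KO and 40488, 36822, 16292 and 40505 in WT (-5.57 ± 0.45). Dnah2, a heavy chain of the double-headed inner arm, had 1044, 1719, 1418 and 1006 against 38033, 26237, 12641 and 36255 (-5.15 ± 0.47). Dnah3 (chr7:119922671-120095280, minus strand) had the fewest counts of the class in KO, 5, 10, 11 and 12, and uneven in WT, with 1732, 294, 2266 and 1577 (-7.84 ± 0.72, edgeR adjusted p = 1.86e-05). Dnah7a, Dnah7b and Dnah7c, named after their values were seen, share 20.9%, 23.7% and 24.6% of their 100-base transcript windows with each other, so how reads that match more than 1 of them were counted is uncertain.

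Of the 33 Cfap genes, 30 fell in KO spermatocytes, with a class median of -6.45. Cfap206 (chr4:34688559-34730206, minus strand) had 283, 95, 227 and 280 counts in KO and 47977, 28248, 23947 and 41864 in WT (-7.96 ± 0.57, edgeR adjusted p = 5.98e-06). Cfap52, a protein of the doublet's inside wall, had 41, 11, 29 and 54 against 14107, 10850, 6341 and 12012 (-8.95 ± 0.64). Cfap65 had 371, 147, 266 and 494 against 44062, 35838, 23577 and 37719 (-7.40 ± 0.55). Loss of Cfap43, Cfap44, Cfap58, Cfap61, Cfap65 or Cfap69 is known to disturb the sperm tail, and the log2 fold changes of the other genes named were -6.28 for Cfap43, -6.45 for Cfap44, -8.24 for Cfap58, -6.09 for Cfap61 and -4.41 for Cfap69. Cfap53, Cfap157 and Cfap161 had log2 fold changes of -6.58, -7.32 and -7.66. Among the smaller falls was that of Cfap36, an ARL3-binding protein, with 3529, 2358, 3187 and 3790 counts in KO against 34636, 21845, 24320 and 28520 in WT (-3.70 ± 0.31). Another was that of Cfap20, a protein at the inner junction of the doublet that is also found outside cilia, with 2176, 2621, 2458 and 2189 against 6187, 5863, 5786 and 4995 (-1.88 ± 0.18, edgeR adjusted p = 1.93e-05).

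The X-linked Cfap47, which was named after its values were seen and encodes a protein of the central apparatus, stood on the other side. It had 1806, 731, 1418 and 1979 counts in KO and 433, 53, 358 and 419 in WT spermatocytes, a log2 fold change of 1.62 ± 0.62 that missed the threshold (edgeR adjusted p = 0.0395). In raw counts every KO library lay above every WT library, and after TMM scaling the groups overlapped. With library totals as the scale it was 2.34 and called as higher. Among the members called as lower, Cfap100, also named after its values were seen, was the only one that did not keep its call in every fit with a library left out (called in 1 of 8), and it overlapped between genotypes with 109, 42, 47 and 110 counts against 300, 59, 546 and 182.

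The WT spermatocyte libraries differed from each other, and unevenly across members. Relative to the mean of WT replicates 1 and 4, replicate 3 had a median ratio of 0.45 over 62 members with a mean count of at least 50, and 52 of them were below 1. For the 10 inner arm dyneins that median was 0.291 with all 10 below 1, and for the 7 Odf genes it was 1.28 with 5 above 1. Members of a class were split: the ratio was 2.10 for Odf1 but 0.492 for Odf2 and 0.479 for Odf4, and 2.51 for Dnah5 but 0.256 for Dnah8 and 0.226 for Dnah17. Outside the Odf genes it was also above 1 for Dnah9 (2.03), Cfap97d1 (1.99), Cfap100 (1.59) and Cfap77 (1.06), and no difference between classes was tested. Replicate 3 was the lowest WT library for 44 of 63 members and the highest for 11, among them Odf1, Odf3 and Odf3l1. Replicate 2 had a median ratio of 0.56 over all members and 0.225 over the Odf genes. Marker sums moved with these patterns: the 18 spermatid markers (Odf1 left out) came to 1153, 283, 2058 and 1056 CPM in WT replicates 1 to 4, and the 14 pachytene and diplotene markers to 16334, 12675, 8272 and 15717. Replicate 3 was thus highest in spermatid markers and lowest in pachytene markers, and replicate 2 lowest in spermatid markers, in cells sorted with a gate described as diploid. The part of these markers in the members' differences was not tested.

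**Figure D4:**
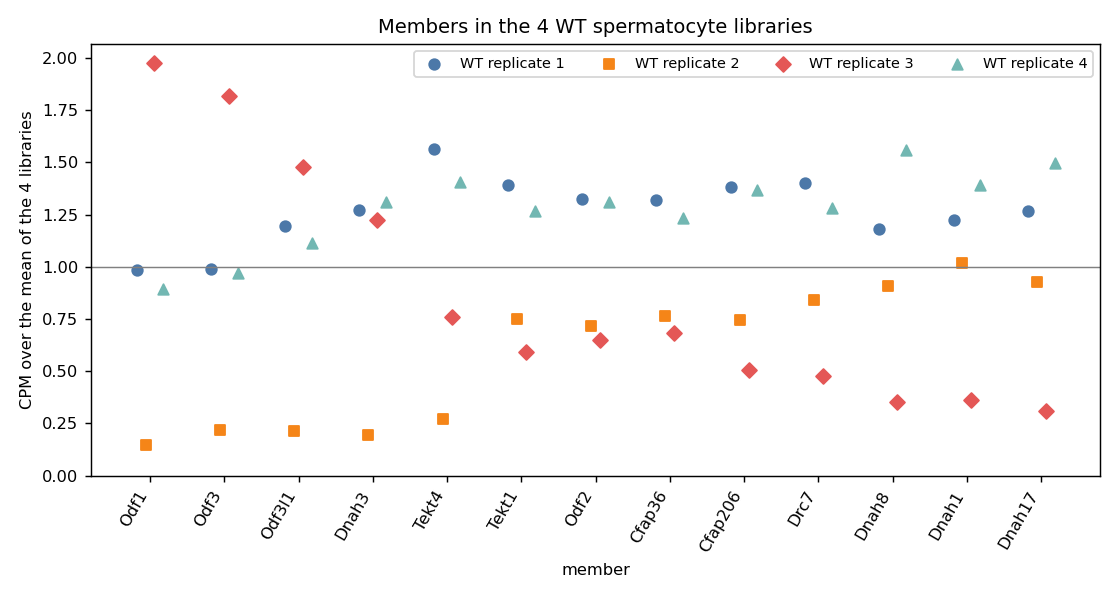
CPM of 13 members in the 4 WT spermatocyte libraries, each divided by its mean over those 4 libraries. The members were chosen after their values were seen: Odf1, Odf3 and Odf3l1 peak in replicate 3, Odf1, Odf3, Odf3l1 and Dnah3 are lowest in replicate 2, and Dnah8, Dnah1 and Dnah17 are lowest in replicate 3.

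Some marker sums moved with genotype as well, and the marker counts stand beside 27.6% of all genes higher and 30.6% lower in this comparison. In KO spermatocytes the pachytene and diplotene markers summed to 399, 277, 424 and 444 CPM and the spermatid markers to 7.35, 6.76, 15.1 and 7.74, each below the lowest WT library by far, and all 18 spermatid markers fell. The 14 leptotene and zygotene markers gave 3254, 2279, 3574 and 3772 CPM in KO and 3176, 3574, 4437 and 3252 in WT, with 5 higher, 3 lower and overlapping sums. Of 15 spermatogonia markers, 10 were higher and 2 lower in KO. Macrophage, endothelial and blood markers summed to 30.8 to 170.0 CPM in KO and 11.8 to 17.5 in WT, with 6 of 10 higher, and Sertoli cell markers to 401 to 1306 and 156 to 586, with 3 of 12 higher. Of 8 multiciliated cell markers tested, 6 were lower and 1, Tppp3, was higher in KO, where the sums were 436 to 858 CPM against 1353 to 2534 in WT. Their part in the members' fall was not tested. The members' summed level was 746, 506, 711 and 827 CPM in KO replicates 1 to 4, beside Leydig and stromal marker sums of 4184, 2209, 412 and 3661 CPM.

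KO was compared with WT spermatogonia to ask whether these genes differ before meiosis. Of 55 members tested, none was called (edgeR, adjusted p under 0.01), beside 0.00484% of genes called lower and 0.0629% higher among all 20659. The smallest adjusted p was 0.0537, for Odf4. The fitted values nevertheless lay mostly below 0, in 51 of 55 members with a median of -2.01 beside 0.03 over all genes, and 37 members had an unadjusted p under 0.05, as did 1500 of all genes (7.26%). In 31 of the 55 every KO library was below every WT library, against 6.98% of all genes. DESeq2's Wald test called 22 members lower (1.83% of all genes), and edgeR with the replicate number as a block called 3, Cfap46, Dnah7c and Odf4 (0.421% of all genes). Replicate numbers of spermatogonia deviated together, as described with the processing.

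The members' level in WT spermatogonia rested largely on replicate 2. Summed over 62 members it was 1061, 3283 and 771 CPM in WT replicates 1 to 3 and 551, 582 and 517 in the KO ones. Replicate 2 was the highest of the 6 libraries for 51 of 56 members with a mean count of at least 10, and its ratio to the mean of the other WT libraries had a median of 4.85 over 52 members (range 0.683 to 11.2). The pachytene and diplotene markers moved with it, at 295, 275 and 340 CPM in KO and 721, 2150 and 449 in WT. The spermatid markers were at 7.17, 6.94 and 7.52 in KO and 11.9, 30.5 and 8.84 in WT, with Acrv1, Spaca4, Prm1, Prm3 and Tnp2 at no more than 3 counts in any of these libraries. Leptotene and zygotene markers were at 2779, 2905 and 2054 in KO and 3275, 3441 and 2963 in WT, and spermatogonia markers at 3852, 3444 and 3941 against 3954, 3295 and 3989. Without WT replicate 2, again no member was called, 49 were below 0 and the median was -0.89. The part of these markers in the members' levels was not tested.

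**Figure D5:**
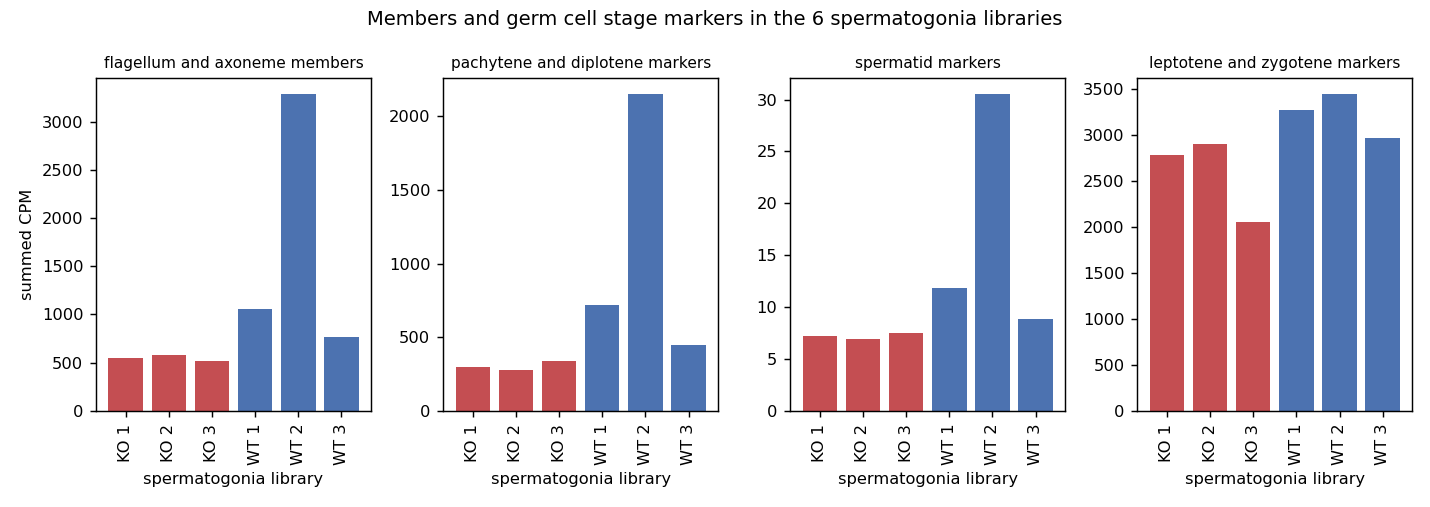
Summed CPM of the members and of the pachytene and diplotene, spermatid, and leptotene and zygotene markers in the 6 spermatogonia libraries (bars from 0). WT replicate 2 is the highest bar for the members (3283 CPM) and for each of the marker sets, and the 3 KO libraries lie below the WT libraries in each panel.

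Odf4 differed most in spermatogonia. The WT libraries held 267, 1086 and 83 counts of it and the KO libraries 1, 0 and 0, so that the groups did not overlap with or without WT replicate 2. The depth-corrected ratio of WT to KO counts was 1541, with a 95% counting interval from 276 to 60891, and without WT replicate 2 it was 540 (96.2 to 21378). In the main fit its log2 fold change was -10.20 and it was not called (edgeR adjusted p = 0.0537). With the replicate block the value was -10.09 (edgeR adjusted p = 0.000236). In raw counts it was higher in each KO spermatocyte library (4 to 36) than in any KO spermatogonia library, and lower than in any WT spermatogonia library.

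Other members with separate groups in spermatogonia were Drc7, with 7, 4 and 3 counts in KO and 175, 682 and 20 in WT, and Tekt1, with 32, 43 and 26 against 487, 1908 and 174. Cfap52 had 13, 6 and 9 counts in KO against 263, 1109 and 81, and Cfap65 had 54, 104 and 58 against 1110, 6937 and 520. Dnah17 had 71, 124 and 43 against 1148, 6742 and 239, and Dnah8 had 1579, 1173 and 1016 against 6725, 25048 and 2987. Their log2 fold changes ran from -6.12 for Drc7 to -3.39 for Dnah8, and the edgeR adjusted p from 0.0968 for Cfap52 to 0.196 for Dnah17. Without WT replicate 2 the log2 fold change was -4.36 for Drc7, -3.14 for Dnah17 and -1.97 for Dnah8. Members expressed more evenly in WT spermatogonia showed small differences. Odf2 had 4690, 6163 and 5695 counts in KO and 6863, 12029 and 7607 in WT (-0.81 ± 0.27, edgeR adjusted p = 0.432), and Cfap20 had 2709, 2427 and 2474 against 2431, 2971 and 2318 (-0.14 ± 0.18). Odf1 had 9, 0 and 13 counts in KO and 4, 1 and 9 in WT, too few to be tested, and Odf3l1 had 2 counts in either genotype.

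The genotype effect itself was then compared between stages in 1 fit over all 14 libraries. It was more negative in spermatocytes for 33 of 62 members tested and more positive for none (edgeR, adjusted p under 0.01), beside 14.6% and 10.9% of all 24340 genes, with a median of -3.43 beside 0.20. Counts by class were 4 of 5 tektins, 7 of 10 inner arm dyneins, 2 of 3 Drc genes, 17 of 32 Cfap genes, 2 of 6 Odf genes and 1 of 5 outer arm dyneins. The difference was -9.30 ± 1.56 for Odf1, -7.66 ± 1.00 for Dnah3 and -6.77 ± 1.31 for Tekt4, each of which had low counts in all spermatogonia libraries but for Tekt4 in WT replicate 2 (137), so that the fitted sizes depend on the prior count. For Odf4 the difference was 0.50 ± 1.32 (edgeR adjusted p = 0.788) and for Cfap65 -1.96 ± 1.01 (edgeR adjusted p = 0.127). When WT spermatogonia replicate 2 was left out, Odf4 turned to -1.04 without a call, and Cfap65 was called at -3.85 (edgeR adjusted p = 0.00136). Without WT spermatogonia replicate 2 the count rose to 47 (13.5% of all genes) and the median was -4.68, and with library totals the count was 23, with 6.99% of all genes lower and 17.2% higher. With spermatocyte replicates 1 and 4 summed it was 24 (9.7% of all genes).

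In WT, 55 of 62 members were higher in spermatocytes than in spermatogonia and none was lower (edgeR, adjusted p under 0.01), beside 29.1% higher and 23.1% lower among all genes. The median log2 difference was 4.68, beside 0.02. The largest fitted differences were those of Odf3l1 (10.15 ± 1.20), Odf1 (9.57 ± 1.28), Dnah3 (7.56 ± 0.82), Tekt3 (6.96 ± 1.15) and Tekt4 (6.95 ± 0.97). Odf3l1 had at most 2 counts and Odf1 at most 9 in any WT spermatogonia library, so their sizes and order depend on the prior count. With library totals 54 members were called higher, beside 18.6% of all genes higher and 35.8% lower. Cfap20 differed by 1.83 ± 0.18 and Odf2 by 3.89 ± 0.32. Not called were Cfap47, Cfap77, Dnah5, Dnah9, Dnah11, Dnah2os and Odf3b.

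In KO, none of the 62 members was called between the stages (edgeR, adjusted p under 0.01), beside 2.87% higher and 0.037% lower among all genes. Of these members, 57 had fitted values above 0, with a median of 0.98 beside 0.02, and 21 had an unadjusted p under 0.05, as did 24.4% of all genes in either direction. At an adjusted p under 0.05, 8 were higher (7.67% of all genes), namely Cfap47, Cfap69, Cfap97d2, Dnah7a, Dnah7c, Drc3, Odf2l and Odf4, and DESeq2's Wald test at 0.01 also gave 8 (8.6% of all genes). Odf4 had the largest fitted value, 5.35 ± 1.53 (edgeR adjusted p = 0.0453), from 0 to 1 counts per KO spermatogonia library to 4 to 36 per KO spermatocyte library. Cfap20, Tekt2 and Dnah3 stood at 0.04 ± 0.17, -0.01 ± 0.35 and -0.10 ± 0.69. Of the markers, 8 of 12 Leydig and stromal ones were higher (median 6.29), as were 5 of 12 of macrophages, endothelium and blood (2.69). So were 2 of 14 leptotene and zygotene (0.93) and 1 of 14 pachytene and diplotene markers (1.44), and no marker was called lower. Their part in the members' values was not tested. The WT and KO stage comparisons contrast different libraries, but both come from 1 fit over all 14, with the same filter, scaling and estimate of spread. They are therefore not independent, and each also shares libraries with the genotype comparisons.

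The other parts of the axoneme, from lists of known genes, mostly moved the same way in spermatocytes, where 30.6% of all genes fell and 27.6% rose. Single genes named are examples, and several of their falls are larger than the list median. All 15 dynein arm assembly factors fell in KO (median -3.39), with Dnaaf1 at -6.61. All 16 dynein light and intermediate chains and docking proteins fell (-4.44), with Dnaic1 at -4.26 ± 0.35 and Dnaic2 at -7.71 ± 0.75. Of 25 radial spoke, regulatory complex and ruler genes, 24 fell (-6.06), and Ccdc153 missed the threshold at -2.21 (edgeR adjusted p = 0.0113). Of 14 central apparatus genes, 13 fell (-5.57), with Hydin at -7.56, and Camsap3, which binds microtubule minus ends, rose by 1.76. Of 20 genes of the fibrous sheath, dense fibres and annulus, 18 fell (-4.63), with Akap4 at -9.30, and Septin7 rose by 1.63. Intraflagellar transport genes, which build all cilia, fell in 27 of 30 cases by less (-2.57), with Ift140 at -5.31.

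Of 15 transcription factors of cilium and late meiotic genes, 6 were lower and 3 higher in KO spermatocytes, where 30.6% of all genes tested were lower and 27.6% higher. Rfx2, Rfx4, Foxj1, Tcfl5, Sox30 and Crem were lower, at -4.40, -8.03, -4.21, -3.59, -2.29 and -3.50, while Taf7l, Myb and E2f5 were higher, at 3.91, 2.85 and 1.87. Rfx1 (-0.13), Rfx3 (0.88) and Mybl1 (-0.59) were not called. In spermatogonia no gene of any of these lists was called (edgeR, adjusted p under 0.01). List medians there ran from -2.68 for the radial spoke list to -0.08 for the transcription factors. WT replicate 2 stood apart in them: the radial spoke list summed to 138, 112 and 114 CPM in KO and 342, 1205 and 208 in WT, and the central apparatus list to 132, 110 and 111 in KO and 212, 495 and 143 in WT.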

How the data were processed

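The authors trimmed reads with cutadapt 4.0, aligned them to GRCm38 (STAR 2.7.3a, GENCODE M25 annotation, no more than 100 alignments for a read) and let TEtranscripts divide them, reverse-stranded, among genes and transposable element (TE) subfamilies. The deposited values used here are the resulting raw counts per gene and TE subfamily. Columns in the same tables that hold the authors' own fold changes and p-values were not used, nor were TPM values of single TE copies. No count column was without a sample, and a further spermatogonia library per genotype, excluded by the authors, was not analysed here. Spermatogonia columns numbered rep4 belong to replicate 3.

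Tests were run with edgeR 4.0.16 under R 4.3.3 (low counts filtered by filterByExpr, TMM scaling over all features, robust quasi-likelihood), per stage, or over 14 libraries in 4 groups for comparisons of stages. Features were called at an adjusted p under 0.01. CPM are TMM-scaled within a stage's table, and groups whose libraries all had 3 counts or fewer count as being at the floor. The code was tested on simulated data. DESeq2 1.42.0 served as an alternative, and tables and plots used Python 3.11.15, pandas 2.3.3, SciPy 1.17.1 and matplotlib 3.10.9. Same-numbered KO and WT spermatogonia deviated together from their group means (correlations 0.519, 0.166 and 0.181; cells came from littermates), although replicate 2 correlated more with another number (0.263), so the fit with the replicate block is given beside that result. Alternatives changed the tool, scaling, filter, threshold or block, summed spermatocyte replicates 1 and 4, or left out 1 library.

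The members and lists were chosen with earlier results of these data known. Named members are a fixed list of well-known ones, the 5 called members with the largest rise or fall in a comparison (mean count of at least 100, groups not overlapping) and the 2 of each role class with the highest level per kilobase in WT spermatocytes, 34 in all, and others are stated to be chosen after their values were seen. Positions are from the GENCODE M21 annotation on GRCm38.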

Additional observations from a re-analysis of the deposited data

Results flagged for a closer look

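Of 68 groups of 4 libraries examined, 3 had a library far from the other 3 by Dixon's criterion, which chance gives in about 1 of 20 groups. Dnah11 was at 2.23 CPM in KO spermatocyte replicate 2, with the others at 1.27 to 1.41. Dnah3 was at 7.38 CPM in WT spermatocyte replicate 2, with the others at 45.8 to 49.1, and the spermatid markers were lowest in the same library (283 CPM). Odf3 was at 0.0175 CPM in KO spermatocyte replicate 1, which is 1 count, with the others at 0.

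The genotype effect differed between spermatocytes and spermatogonia for 33 members (edgeR, adjusted p under 0.01), all with a more negative value in spermatocytes. Among dense fibre genes and tektins, the log2 difference was -9.30 for Odf1, -3.47 for Odf2, -3.50 for Tekt1, -5.02 for Tekt2, -6.77 for Tekt4 and -5.40 for Tekt5. Among dyneins and the regulatory complex it was -3.61 for Dnah1, -4.01 for Dnah2, -7.66 for Dnah3, -3.91 for Dnah8, -4.66 for Drc1 and -2.44 for Drc3. Among Cfap genes it was -5.58 for Cfap157, -5.75 for Cfap161, -1.79 for Cfap20, -2.57 for Cfap36, -4.04 for Cfap43, -5.21 for Cfap53, -5.12 for Cfap61 and -2.27 for Cfap69. Of the 33, 21 were called whichever library was left out, and Cfap161, Cfap69, Dnah8, Drc1, Tekt1 and Tekt4 were among the 12 that were not.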

How the results depend on the processing

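In spermatocytes 54 of the 55 members called as lower were called whichever library was left out (range 54 to 55). DESeq2 kept all 55 and added Odf3b as lower, with 34.9% of all genes lower. The replicate block kept 54 and added Cfap47 as higher, with 27.5% of all genes lower and 23.2% higher. The spermatocyte replicate numbers share only a number, with same-number correlations of 0.077, 0.208, -0.005 and 0.12. In spermatogonia the count of 0 became 22 with DESeq2's Wald test and 3 with the replicate block, and stayed at 0 when each library was left out, with medians between -2.55 and -0.89 (the latter without WT replicate 2). With library totals the median was -5.48 in spermatocytes (0.79 over all genes) and -2.60 for the genotype effect between stages (0.90 over all genes). The latter ran from -4.68 to -2.92 and its count from 22 to 47 over libraries left out, and was 44 with DESeq2 (20.6% of all genes), 41 with the replicate block (13%) and 24 with spermatocyte replicates 1 and 4 summed (9.7%). The highest count and the lowest median came without WT spermatogonia replicate 2 (13.5% of all genes), and the lowest count without WT spermatogonia replicate 1 (8.56%). Summing those replicates gave 54 in spermatocytes (23.3% of all genes lower). For WT spermatocytes against WT spermatogonia the count ran from 53 to 57 (21.4 to 29.5% of all genes higher) and the median from 4.15 to 5.70. For KO spermatocytes against KO spermatogonia the count of 0 became 8 at an adjusted p under 0.05 (7.67% of all genes higher), 8 with DESeq2's Wald test (8.6%), 1 with DESeq2 size factors (2.87%), 1 with a mean count of at least 50 (3.79%), and 0 to 3 over libraries left out (0.378 to 3.92%; median 0.85 to 1.11).

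Log2 fold changes of 5 members turned sign in spermatogonia as libraries were left out. Dnah6, with 298, 269 and 208 counts in KO and 200, 1036 and 43 in WT, ran from -1.48 to 1.07 around -0.92, was at its highest without WT replicate 2, and was 0.17 with the replicate block. Leaving out WT replicate 2 gave 0.07 for Cfap20, 0.03 for Tekt2 and -0.02 for Dnah11, leaving out WT replicate 1 gave 0.03 for Dnah3 and -0.04 for Dnah11, KO replicate 2 gave 0.28 for Dnah3 and KO replicate 1 gave -0.18 for Dnah11. Over all libraries left out, Cfap20 ran from -0.25 to 0.07, Tekt2 from -0.64 to 0.03, Dnah3 from -0.58 to 0.28 and Dnah11 from -0.18 to 0.26. Dnah9 in spermatocytes was 0.13 with library totals. The between-stage difference of Odf4 was -1.04 without WT spermatogonia replicate 2 and -0.10 without KO spermatocyte replicate 4, in a range up to 2.27. The cause of these changes was not tested. Odf1 and Odf3l1 had too few counts in spermatogonia to be tested there between genotypes, and values of the fits over all 14 libraries for them rest on those low counts.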
